A study of Mus musculus with 24 samples.

Results

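ONX-0914, an inhibitor selective for the LMP7 (PSMB8) subunit of the immunoproteasome, was given to mouse peritoneal macrophages in 2 states, and the question here was which genes answered it differently in the IL-4-treated state (M2) than in the unstimulated state (M0). The measure is a difference of 2 changes on the log2 scale, the change with ONX-0914 in M2 minus the change with ONX-0914 in M0. It uses 16 of the 24 libraries of the series, 4 in each of the groups M0, M0 with ONX-0914, M2 and M2 with ONX-0914, and 14692 tested genes of 54532 features. The M0 cells were the Control cells of the labels and the M2 cells received IL4; M0 and M2 without inhibitor carry no ONX-0914. The other 8 libraries are M1 cells (LPS with IFN-γ), without and with ONX-0914. They did not enter the contrast but shared the count filter, the scaling between libraries and the estimate of spread. Polyadenylated RNA was sequenced in pairs of 150-base reads, and each library held 50000 peritoneal macrophages pooled from 2 to 3 mice, with 4 independent replicates a group per the labels. The labels used here name no strain, sex or age of the mice, and no dose, exposure time or vehicle.

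The proteasome degrades proteins tagged with ubiquitin. Its barrel-shaped 20S core carries the proteolytic subunits, and the 19S cap recognises and unfolds the substrates; immune cells can exchange the catalytic subunits of the core for immunoproteasome subunits. When degradation falls short, cells are known to raise proteasome subunit genes through NRF1 (Nfe2l1), antioxidant genes through NRF2 (Nfe2l2, held down by KEAP1) and cytosolic chaperones through HSF1. IL-4 acts on macrophages through its receptor and STAT6 and induces genes such as Arg1, Mrc1 and Chil3.

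Total counts of the 16 libraries ran from 18480233 to 21821483, and log2 levels of 2 libraries of the same group correlated across genes with r between 0.9908 and 0.9924. Levels below are CPM (counts per 1e6 counts after TMM scaling). The sum of 8 macrophage markers was lower with ONX-0914, at means of 13259 and 11225 CPM in M0 and 13210 and 10818 CPM in M2 without and with it. Most of it was the lysozyme gene Lyz2 (10496, 8336, 10114 and 7736 CPM in the same order). Summed markers of mesothelial cells and fibroblasts lay between 719 and 1093 CPM, led by the collagen gene Col1a2 at 309 to 357 CPM as group means, and 0 of the 12 members of that list were called in the difference by edgeR (1 at an unadjusted p under 0.05). Of 12 neutrophil markers S100a9, Ly6g and Retnlg had 0 counts in all 16 libraries. The sum of that list was 53.9 and 60.4 CPM in M0 and 70.9 and 81.5 CPM in M2, led by the receptor gene Csf3r at 44.0 to 64.7 CPM as group means. The summed dendritic cell markers were 7.37 and 6.51 CPM in M0 and 34.5 and 19.5 CPM in M2. Most of the M2 sum was 1 gene, Batf3 (3.75, 2.88, 29.6 and 14.6 CPM in the same order). Zbtb46 of the same list read 2.02, 2.33, 3.91 and 4.03 CPM. Batf3 was thus lower with ONX-0914 in M2. The part of dendritic cells in that result was not tested. RNA of one whole culture cannot tell fewer cells of a type from less RNA per cell.

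2 libraries stood apart. Replicate 4 of M2 with ONX-0914 carried 345 CPM over the 50 genes with the highest M1-to-M0 ratio, against 218 to 253 CPM in the other 3 libraries of its group, 184 to 204 CPM in M2, 152 to 183 CPM in M0 and 153 to 165 CPM in M0 with ONX-0914; M1 cells held at least 55406 CPM without ONX-0914 and at least 47660 CPM with it. Replicate 2 of M1, which does not enter the contrast but shares its estimate of spread, held 0.300% mitochondrial counts against 1.07% to 1.14% in the other M1 libraries. Values without either library are given beside some of the results they changed.

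A gene was called when its edgeR quasi-likelihood p, adjusted by Benjamini-Hochberg over all 14692 genes, was under 0.05. The inhibitor effect differed between M2 and M0 at 907 genes (6.17% of those tested), 505 higher in M2 (3.44%) and 402 lower (2.74%). Without replicate 4 of M2 with ONX-0914 the count was 759, with 435 higher and 324 lower. Without replicate 2 of M1 it was 1672, with 949 higher and 723 lower. Fitting the 16 libraries alone gave 1590 genes and turned the split, with 721 higher and 869 lower, so that the higher share went from 55.7% to 45.3%. That fit also filtered and scaled without the M1 libraries. Its median difference over all genes was -0.0163, against 0.0068 in the main fit. DESeq2 size factors in edgeR turned it as well, with 422 higher and 468 lower (47.4%), and so did DESeq2's Wald test (47.4% of 1167). Differences were mostly modest, with a median size of 0.47 among the called genes on the log2 scale and 81 genes past 1. In a simulation of this contrast with known answers, 42 of 50 genes with a 1.5-fold difference were called and 9 of 50 with a 1.25-fold difference. Its planted genes had middle levels and it held no outlying library, so these shares need not hold for every gene here.

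ONX-0914 changed 3079 genes in M0 (21.0% of those tested; 1401 rose, 9.54%, and 1678 fell, 11.4%) and 5345 genes in M2 (36.4%; 2586 rose, 17.6%, and 2759 fell, 18.8%). The fitted changes at the 907 genes sort into a few shapes. At 371 genes the change was upward in both states and larger in M2, and at 254 it was downward in both and larger in M2. At 142 genes the fitted change was upward in M0 and downward in M2, and at 117 it was downward in M0 and upward in M2. At 23 genes it had the same sign in both states and was smaller in M2. The change was of larger size in M2 at 817 of the 907 (90.1%), a share the call itself favours, and at 64.3% of all tested genes. The median size of the change over all tested genes was 0.17 in M0 and 0.23 in M2.

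**Figure D1:**
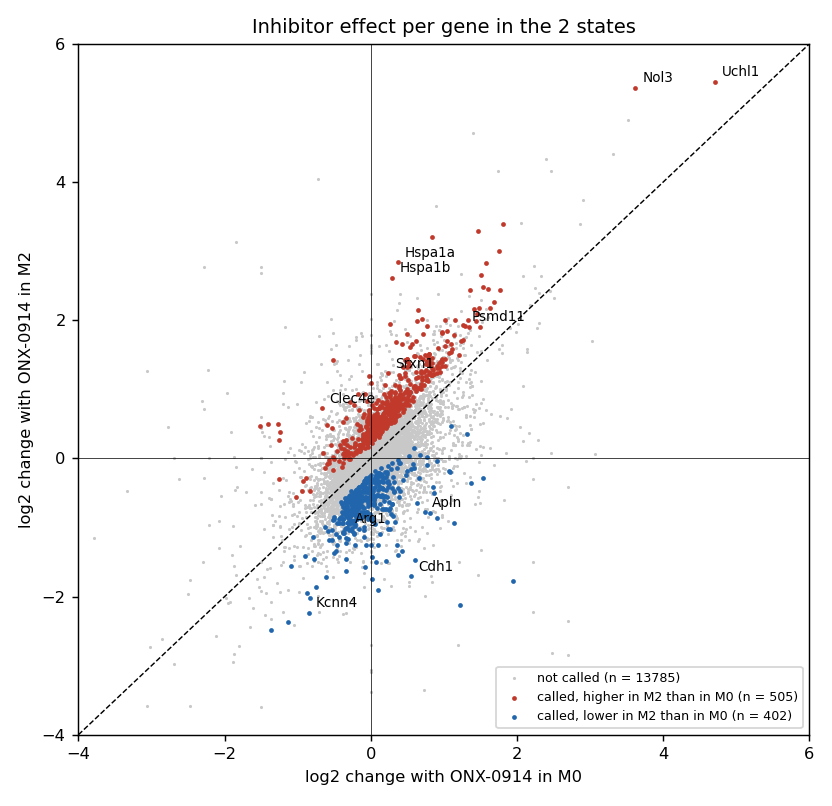
Fitted log2 change with ONX-0914 in M0 (x axis) and in M2 (y axis), 1 point per tested gene; 6 genes lie outside the axes, and the dashed line marks equal changes. The red points (505 genes called higher in M2) lie above the dashed line, most of them at upward changes in M2, and the blue points (402 called lower) lie below it, most of them at downward changes in M2.

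Genes chosen outside these 16 libraries also had the larger median change in M2. ONX-0914 changed 6514 of the 14692 tested genes in the M1 libraries, which the M2-minus-M0 contrast does not use. Taken in the direction of their M1 change, these genes had a median log2 change of 0.15 in M0 and 0.27 in M2, and 71.6% of them had the larger value in M2. For the 950 whose M1 change was at least 1 on the log2 scale the medians were 0.42 in M0 and 0.76 in M2. Over all tested genes 64.3% had the larger change in M2 by size, whatever its direction. The genes were chosen with all M1 libraries, replicate 2 among them, and the choice was not repeated without it. These medians and shares are descriptions over genes and carry no test.

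Among called genes with at least 5 CPM in their highest group, 2 cytosolic heat shock genes, Hspa1a and Hspa1b, had the largest positive differences. Of 23 tested members of the heat shock list, 14 were higher in M2 than in M0 and none was lower, against 3.44% and 2.74% of all genes, and all 23 fitted differences were above 0 with a median of 0.62 (0.01 over all genes). In M2, ONX-0914 raised 21 of the 23 with a median log2 change of 0.71. In M0 it raised 9 and lowered 2, with a median of 0.18. Over all genes it raised 17.6% in M2 and 9.54% in M0. The counts of members higher were 14 without replicate 4 of M2 with ONX-0914 and 18 without replicate 2 of M1.

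Hspa1a encodes an inducible HSP70 that refolds damaged proteins (ENSMUSG00000091971, chr17:34969190-34972156, minus strand, GRCm38). Its level was 2.51, 2.70, 2.56 and 2.65 CPM in M0, 3.30, 3.07, 3.70 and 3.41 CPM in M0 with ONX-0914, 2.11, 3.05, 2.25 and 2.41 CPM in M2, and 19.3, 15.4, 19.1 and 16.5 CPM in M2 with ONX-0914. The 4 inhibitor-treated M2 libraries stood far above the other 12, which all lay under 4 CPM. The difference was 2.47 ± 0.194 on the log2 scale (SE; edgeR adjusted p = 4.15e-09), from a change of 2.84 in M2 and of 0.37 in M0 (adjusted p = 0.0695).

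Its neighbour Hspa1b (chr17:34956436-34959238) encodes a near-identical HSP70, so that reads could be split between the copies. Hspa1b lay between 5.31 and 8.54 CPM in M0, 7.64 and 9.82 CPM in M0 with ONX-0914, 5.26 and 6.83 CPM in M2, and 33.5 and 37.6 CPM in M2 with ONX-0914. Only the M2 groups were free of overlap, and the difference was 2.32 ± 0.167 (edgeR adjusted p = 1.01e-09). The 250 bases before the transcription start of each gene are shown because these are the members with the largest difference, and because the window holds a heat shock element core, GAANNTTC searched on both strands and printed in capitals. They come from RefSeq (GRCm38.p6, minus strand of chromosome 17, chr17:34972157-34972406 for Hspa1a and chr17:34959239-34959488 for Hspa1b), written 5′ to 3′.
Hspa1a: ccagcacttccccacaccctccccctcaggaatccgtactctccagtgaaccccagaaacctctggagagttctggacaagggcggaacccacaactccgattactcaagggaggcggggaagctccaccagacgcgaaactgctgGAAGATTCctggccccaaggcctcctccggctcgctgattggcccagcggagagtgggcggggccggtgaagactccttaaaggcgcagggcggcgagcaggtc
Hspa1b: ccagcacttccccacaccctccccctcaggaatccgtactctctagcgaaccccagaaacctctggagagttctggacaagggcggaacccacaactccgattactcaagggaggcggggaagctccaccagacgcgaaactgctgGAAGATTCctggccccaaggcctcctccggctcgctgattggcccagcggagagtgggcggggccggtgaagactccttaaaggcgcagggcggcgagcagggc

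The match begins 104 bases before the start in both, and 247 of the 250 positions were identical. Of 25 promoter windows (300 bases around the start) of 18 genes of the heat shock list, 48.0% held this core, against 5.84% of 13384 windows of all tested genes with an entry. Over genes called higher in M2 the share was 6.64% of 512 windows. The core was chosen after the gene results were known, and a match is a run of letters, not a binding site.

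Other chaperones moved less far. Hspb8, a small heat shock protein of the chaperone-assisted autophagy complex, averaged 7.24 CPM in M0, 12.4 CPM in M0 with ONX-0914, 4.79 CPM in M2 and 18.1 CPM in M2 with ONX-0914, a difference of 1.15 ± 0.163 (edgeR adjusted p = 4.78e-05). Dnajb1, an HSP40 partner of HSP70, read 30.7 ± 1.45 CPM (SD, n = 4) in M0, 27.4 ± 2.11 in M0 with ONX-0914, 27.2 ± 1.48 in M2 and 44.2 ± 2.14 in M2 with ONX-0914. Its M0 groups overlapped and its M2 groups did not (difference 0.87, edgeR adjusted p = 4.32e-07). Hspa8, the constitutive HSC70, and Hsp90aa1, the inducible HSP90, were chosen after their values were seen and differed by 0.87 and 0.76 (edgeR adjusted p = 2.05e-08 and 0.000576). Hsf1, the transcription factor of this response, did not pass the test, with a difference of 0.19 (edgeR adjusted p = 0.284); it too was chosen after its values were seen.

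**Figure D2:**
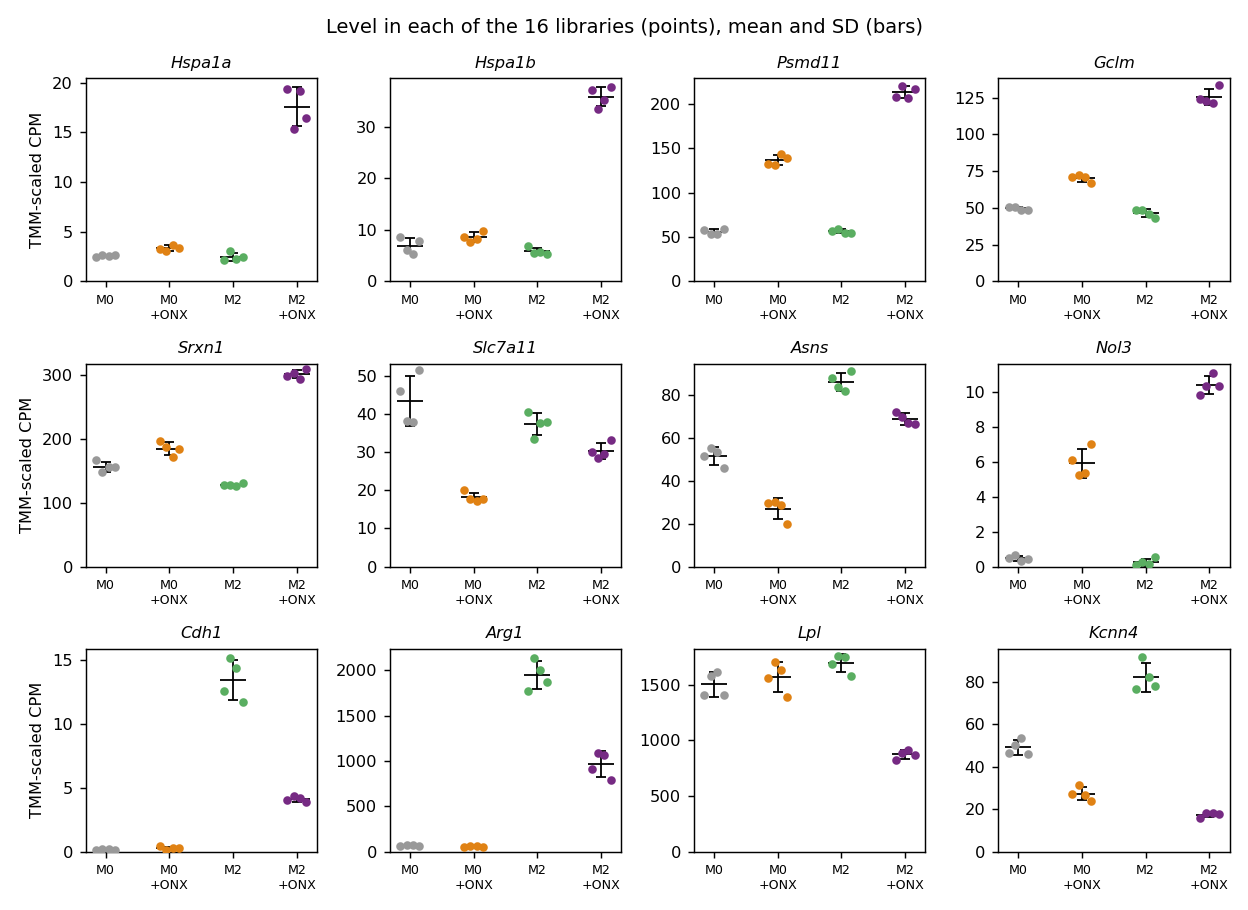
TMM-scaled CPM of 12 genes in each of the 16 libraries (points), with the group mean and SD as bars; every y axis starts at 0. Hspa1a and Hspa1b are high in the 4 libraries of M2 with ONX-0914 alone, Psmd11 and Gclm are raised in both inhibitor groups and most in M2, and Cdh1, Arg1, Lpl and Kcnn4 are lower in M2 with ONX-0914 than in M2.

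Proteasome subunit genes rose in both states and further in M2. All 14 genes of the 20S core rose with ONX-0914 in M0 and in M2, with median log2 changes of 0.82 and 1.21, and 11 of the 14 passed the test of the difference, all higher in M2. Of 18 genes of the 19S regulatory particle, 17 rose in each state (medians 0.97 and 1.36), and 15 were higher in M2 (18 without replicate 2 of M1). The shares over all genes were 9.54% rising in M0, 17.6% rising in M2 and 3.44% higher in the difference. No member of either list was called lower, and the spread of the differences was narrow, from 0.15 to 0.45 in the core and from 0.23 to 0.63 in the particle.

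Psmd11, a 19S lid subunit, had the largest difference of these (chr11:80428615-80473248, plus strand). It read 57.7, 53.7, 53.7 and 58.5 CPM in M0 and 133, 131, 143 and 138 CPM in M0 with ONX-0914. In M2 it read 57.2, 59.2, 54.5 and 54.4 CPM, and in M2 with ONX-0914 208, 220, 207 and 217 CPM. The untreated states lay at the same level and the treated groups did not overlap with each other or with them. The difference was 0.63 ± 0.068 (edgeR adjusted p = 9.2e-07). Psmd3, a second lid subunit, went from 72.2 to 157 CPM in M0 and from 76.1 to 229 CPM in M2, and Psma7, an alpha subunit of the core, from 91.5 to 192 CPM and from 100.4 to 288 CPM, as group means.

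The 3 constitutive catalytic subunits of the core lay near its median difference of 0.37 or under it. Psmb5 went from 98.2 ± 10.6 to 159 ± 7.04 CPM in M0 and from 112 ± 5.06 to 238 ± 15.3 CPM in M2, a difference of 0.39 (edgeR adjusted p = 0.037). Psmb7 differed by 0.36 (edgeR adjusted p = 0.0319). Both calls rest on many libraries: leaving out any 1 of 11 libraries ended the Psmb5 call (0.33 to 0.40, edgeR adjusted p 0.0518 to 0.103), and any 1 of 8 the Psmb7 call (0.32 to 0.36, edgeR adjusted p 0.0524 to 0.0843). Psmb5 was not called with DESeq2 size factors (edgeR adjusted p = 0.0511). Without replicate 2 of M1, Psmb5 and Psmb7 stayed called (edgeR adjusted p = 0.00132 and 0.0047). Psmb6 had a difference of 0.28 (edgeR adjusted p = 0.0893), and it passed without replicate 2 of M1 (edgeR adjusted p = 0.00161).

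The immunoproteasome subunits, which include the target of the inhibitor, showed no called difference. Psmb8 fell in both states, from 52.0 ± 3.54 to 41.7 ± 1.97 CPM in M0 and from 49.5 ± 2.34 to 41.6 ± 3.43 CPM in M2, with a difference of 0.07 (95% interval -0.14 to 0.27; edgeR adjusted p = 0.804). Psmb10 fell from 62.9 to 50.3 CPM in M0 and from 213 to 174 CPM in M2, with a difference of 0.03 (edgeR adjusted p = 0.929). Psmb9 fell in M2 from 19.6 to 15.99 CPM and read 17.97 and 15.5 CPM in M0; its difference was -0.09 (edgeR adjusted p = 0.811), and it overlaps Tap1 on the other strand, whose reads cannot be told apart without a known strand setting. With Psme1 and Psme2, the subunits of the PA28 activator, 0 of the 5 genes were called by edgeR, and 1 had an unadjusted p under 0.05. Limma voom called 1 higher, and so did edgeR with no count filter. The largest difference of the 5, in a PA28 gene, was 0.44.

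Nfe2l1 transcript fell by the same amount in both states, from 298 to 209 CPM in M0 and from 332 to 233 CPM in M2 (log2 changes of -0.51 and -0.51; difference 0.01 with a 95% interval of -0.15 to 0.16). Genes of the p97 machinery that extracts NRF1 from the endoplasmic reticulum rose in both states and more in M2. Nploc4 went from 88.5 to 173 CPM in M0 and from 87.6 to 238 CPM in M2 (difference 0.47, edgeR adjusted p = 4.8e-05), Ufd1 from 43.3 to 75.8 and from 45.9 to 108 CPM (0.43, edgeR adjusted p = 0.000897) and Vcp, p97 itself, from 302 to 565 and from 317 to 743 CPM (0.33, edgeR adjusted p = 0.0131). They are 3 of 10 genes on the NRF1 list (3.44% of all genes were higher), and none was lower. Of 11 assembly factors and other regulators, Psmd5, a 19S assembly chaperone, was higher (0.54, edgeR adjusted p = 9.09e-05) and 10 were not called; 2 were higher without replicate 2 of M1.

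**Figure D3:**
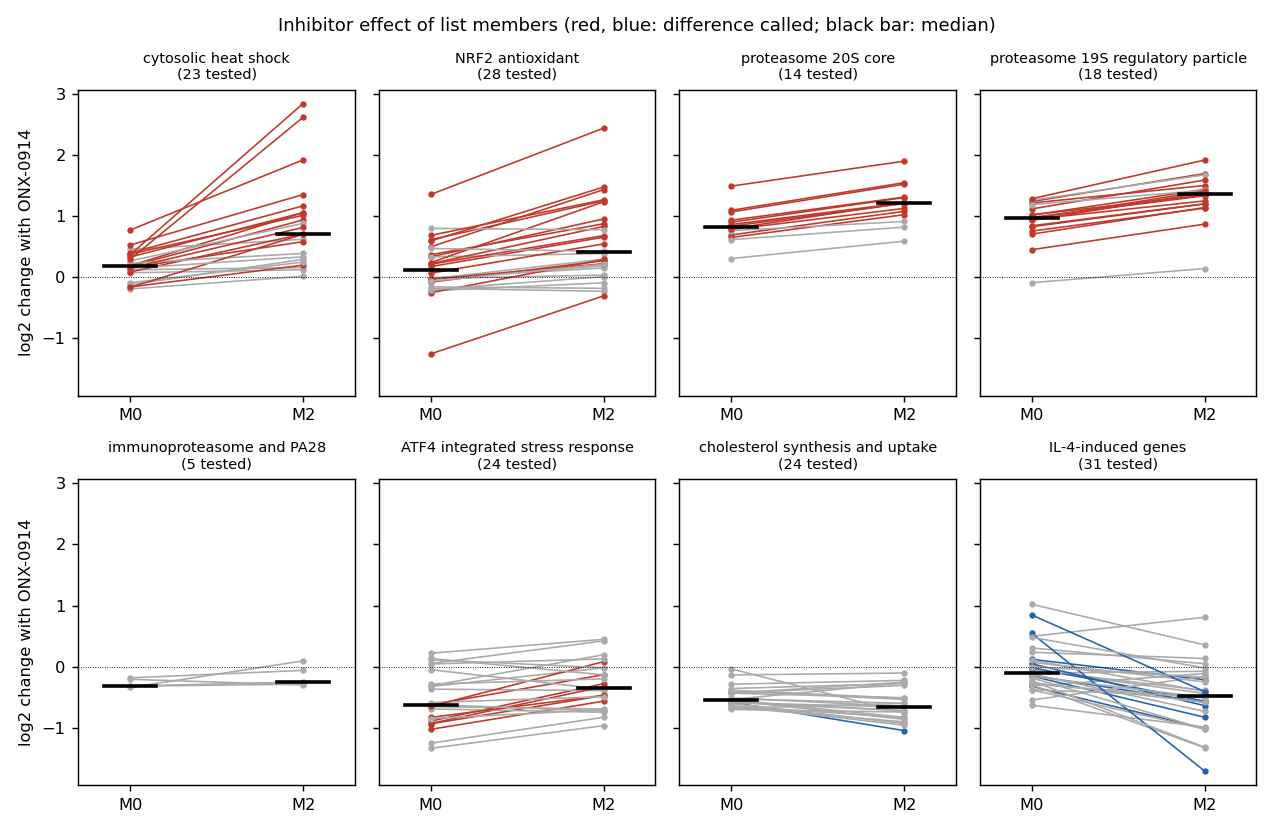
Fitted log2 change with ONX-0914 of every tested member of 8 gene lists in M0 and in M2, joined by a line per gene; red and blue lines passed the test of the difference, grey lines did not, and black bars are medians. Lines of the heat shock, NRF2 and proteasome lists slope upward from M0 to M2, most ATF4 members lie below 0 in both states, nearer to 0 in M2, and most IL-4-induced genes slope downward.

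Genes of the NRF2 response also differed between the states. Of 28 tested members, 16 were higher in M2 (20 without replicate 2 of M1) and none was lower, against 3.44% and 2.74% of all genes. The median difference was 0.41. In M0, 14 rose and 5 fell, against 9.54% and 11.4% of all genes. In M2, 22 rose and 2 fell, against 17.6% and 18.8%. Nfe2l2 itself fell slightly in both, from 371 to 333 CPM in M0 and from 294 to 259 CPM in M2, with a difference of -0.02 (edgeR adjusted p = 0.902). Keap1, its inhibitor, went from 52.2 to 60.6 CPM in M0 and from 42.6 to 68.3 CPM in M2, a difference of 0.47 (edgeR adjusted p = 0.00634).

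Gclm, the modifier subunit of the rate-limiting enzyme of glutathione synthesis (chr3:122245557-122270732, plus strand), read 50.8, 50.7, 48.5 and 48.8 CPM in M0 and 70.7, 72.2, 70.9 and 66.9 CPM in M0 with ONX-0914. In M2 it read 48.5, 48.4, 45.8 and 43.1 CPM, and in M2 with ONX-0914 124, 123, 122 and 134 CPM. The treated groups overlapped with no other group, and the difference was 0.94 ± 0.0907 (edgeR adjusted p = 1.67e-07). Srxn1, which reactivates oxidised peroxiredoxins, went from 156 ± 7.68 to 185 ± 10.1 CPM in M0 and from 128 ± 2.24 to 301 ± 6.22 CPM in M2 (difference 0.99, edgeR adjusted p = 5.03e-10). Me1, the NADPH-forming malic enzyme, went from 6.68 to 17.2 CPM and from 4.23 to 22.9 CPM (1.08, edgeR adjusted p = 0.000126). Sqstm1, which encodes the autophagy receptor p62, went from 672 ± 37.0 to 847 ± 24.6 CPM in M0 and from 765 ± 20.2 to 1482 ± 43.6 CPM in M2 (0.62, edgeR adjusted p = 9.45e-06).

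Hmox1 and Fth1, classical NRF2 targets, did not pass the test of the difference. Hmox1, the haem-degrading heme oxygenase 1, lay between 295 and 348 CPM in all 16 libraries, with a difference of 0.05 (95% interval -0.10 to 0.21). Fth1, the ferritin heavy chain, read 12613 and 12387 CPM in M0 without and with ONX-0914 and 6614 and 8120 CPM in M2, a difference of 0.32 (edgeR adjusted p = 0.223). Fth1 passed in 4 alternatives: without replicate 2 of M1 (edgeR adjusted p = 3.24e-05), with the 16 libraries alone (0.000367), with no count filter (0.0162) and with limma voom (adjusted p = 3.95e-05).

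Slc7a11, the cystine importer, belongs to the NRF2 and the ATF4 responses. It read 46.1, 38.1, 38.0 and 51.5 CPM in M0 and 19.96, 17.8, 17.3 and 17.8 CPM in M0 with ONX-0914, and 40.6, 33.4, 37.6 and 37.9 CPM in M2 and 30.0, 28.5, 29.5 and 33.1 CPM in M2 with ONX-0914. It fell in M0 by 1.25 on the log2 scale, while the M2 change of -0.30 did not pass the test (edgeR adjusted p = 0.0677). The difference was 0.95 ± 0.185 (edgeR adjusted p = 0.00152). The 250 bases before the start of Gclm and of Slc7a11 are shown because they carry, respectively, a match to the antioxidant response element TGACNNNGC and 2 matches to the CEBP-ATF element TGATGNAA, both searched on both strands and printed in capitals (RefSeq, GRCm38.p6; chr3:122245307-122245556, plus strand, and chr3:50443614-50443863, minus strand).
Gclm: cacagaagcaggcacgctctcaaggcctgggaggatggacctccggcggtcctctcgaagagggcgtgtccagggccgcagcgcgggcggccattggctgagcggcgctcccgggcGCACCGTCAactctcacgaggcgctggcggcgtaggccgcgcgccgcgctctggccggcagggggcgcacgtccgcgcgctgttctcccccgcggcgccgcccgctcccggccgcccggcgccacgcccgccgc
Slc7a11: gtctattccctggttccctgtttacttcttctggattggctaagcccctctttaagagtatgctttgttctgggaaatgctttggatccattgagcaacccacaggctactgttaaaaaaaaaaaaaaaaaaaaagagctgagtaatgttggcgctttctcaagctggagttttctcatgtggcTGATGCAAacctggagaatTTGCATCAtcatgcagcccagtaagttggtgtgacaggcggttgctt

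The Gclm match begins 134 bases before the start, and the Slc7a11 matches begin 66 and 47 bases before it. The antioxidant element lay in 14.3% of the 13384 windows of all tested genes, in 26.7% of 30 windows of the NRF2 list, in 21.3% of 512 windows of genes called higher in M2 and in 11.4% of 463 windows of genes called lower. Over the other lists searched, the antioxidant element ran from 16.7% of 12 windows (20S core) to 26.9% of 26 windows (ATF4 list). Its share in the NRF2 list was thus not particular to that list. The CEBP-ATF element lay in 2.35% of all windows and in 26.9% of 26 windows of the ATF4 list. It lay in 3.1% of windows of genes called higher and in 3.5% of windows of genes called lower. Windows with no match say only that these letters are absent there.

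Of 20 listed ubiquitin genes and deubiquitinases, 4 were called, all higher in M2 (3.44% of all genes were), among them Ubb, Uchl1 and Bap1. Bap1, a deubiquitinase of histone H2A, differed by 0.28 (edgeR adjusted p = 0.0316), and the call ended without any 1 of 7 libraries (0.27 to 0.29, edgeR adjusted p 0.0512 to 0.0721) and with no count filter (0.0874). The Bap1 call stayed without replicate 2 of M1 (edgeR adjusted p = 0.00114). Ubb, a polyubiquitin gene, went from 647 to 849 CPM in M0 and from 664 to 1377 CPM in M2 (difference 0.66, edgeR adjusted p = 0.0143). Uchl1, a ubiquitin hydrolase best known from neurons, went from 1.77 ± 0.356 to 46.4 ± 2.51 CPM in M0 and from 1.87 ± 0.246 to 82.5 ± 6.13 CPM in M2 (0.74, edgeR adjusted p = 0.0133; 0.65 and 0.0551 without replicate 3 of M0). Among 23 autophagy genes, 7 were higher and none lower, with Sqstm1 and the initiating kinase Ulk1 (0.49, edgeR adjusted p = 0.00335) among them.

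The amino acid response went down with the inhibitor, and less so in M2. Of 24 tested genes of the ATF4 response, 17 fell and 1 rose in M0 (median -0.62), and 13 fell and 2 rose in M2 (median -0.35). Over all genes 11.4% fell in M0 and 18.8% in M2. The difference was called at 7 genes of the list, all higher in M2 (3.44% of all genes were), and at 11 without replicate 2 of M1. Atf4 itself read 301, 311, 307 and 272 CPM in M0, 201, 190, 203 and 179 CPM in M0 with ONX-0914, 436, 441, 405 and 438 CPM in M2, and 399, 397, 387 and 388 CPM in M2 with ONX-0914. It fell in M0 by 0.62, and the M2 change of -0.13 did not pass (edgeR adjusted p = 0.0714), a difference of 0.49 ± 0.0807 (edgeR adjusted p = 0.000249). Asns, asparagine synthetase, fell from 51.5 ± 4.10 to 27.0 ± 4.83 CPM in M0 and from 86.0 ± 4.13 to 68.6 ± 2.73 CPM in M2 (difference 0.60, edgeR adjusted p = 0.00196). Psph, the last enzyme of serine synthesis, fell from 11.7 to 7.47 CPM in M0 and read 15.5 and 16.4 CPM in M2 (0.73, edgeR adjusted p = 0.000174).

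Among amino acid transporters and tRNA synthetases, many of them known ATF4 targets, most called genes were higher. Slc38a2, a neutral amino acid transporter, fell from 270.2 to 196 CPM in M0 and read 215 and 231 CPM in M2 (difference 0.57, edgeR adjusted p = 0.00269). Cars, the cysteinyl-tRNA synthetase, fell from 82.3 to 58.3 CPM in M0 and read 92.1 and 91.7 CPM in M2 (0.49, edgeR adjusted p = 0.000167). Of 16 transporters 4 were higher and 1 lower, Slc7a8 (-0.61, edgeR adjusted p = 0.000799), and of 19 synthetases 4 were higher and none lower (6 and 1 without replicate 2 of M1). In the unfolded protein response of the endoplasmic reticulum, 2 of 23 genes were higher and 1 lower (4 and 1 without replicate 2 of M1). Beside these list counts, 3.44% of all genes were higher and 2.74% lower. Hspa5, the chaperone BiP, fell in M0 from 557 ± 12.6 to 476 ± 8.07 CPM and rose in M2 from 561 ± 24.7 to 630 ± 13.1 CPM, with no overlap in either state (0.39, edgeR adjusted p = 7.5e-05). Pdia4, a disulfide isomerase, fell in M2 from 309 to 231 CPM and read 71.5 and 67.0 CPM in M0 (-0.33, edgeR adjusted p = 0.0109).

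IL-4-induced genes were on the other side. Of 31 tested members, 8 were lower in M2 than in M0 in their inhibitor response and none was higher (median difference -0.39), against 2.74% and 3.44% of all genes. The count was 13 in the fit of the 16 libraries alone and 12 without replicate 2 of M1. ONX-0914 lowered 19 and raised 1 of them in M2, where it lowered 18.8% of all genes, and lowered 4 and raised 3 in M0, where it lowered 11.4%. By arithmetic the same contrast is the IL-4 effect with the inhibitor minus that without it, so that these 8 genes had a smaller IL-4 effect in its presence. A gene with few counts in M0, such as Cdh1, has a poorly measured M0 change.

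Cdh1, the adhesion protein E-cadherin (chr8:106603351-106670246, plus strand), had the most negative difference of the named genes. It read 0.145, 0.245, 0.241 and 0.166 CPM in M0 and 0.419, 0.142, 0.320 and 0.284 CPM in M0 with ONX-0914, from 17 and 25 counts in all. In M2 it read 12.5, 15.1, 14.3 and 11.7 CPM, and in M2 with ONX-0914 4.01, 4.32, 4.22 and 3.87 CPM. The M0 groups overlapped and the M2 groups did not, and the difference was -2.25 ± 0.484 (edgeR adjusted p = 0.0038; 95% interval -3.20 to -1.30).

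Arg1, arginase 1 and a defining M2 enzyme (chr10:24915221-24927484, minus strand), read 67.4, 77.2, 79.6 and 66.0 CPM in M0 and 53.5, 61.8, 66.7 and 50.1 CPM in M0 with ONX-0914. It read 1775, 2133, 2006 and 1873 CPM in M2 and 910.45, 1091, 1069 and 793 CPM in M2 with ONX-0914. The 2 M2 groups lay apart, and the M0 groups overlapped in 1 value. The difference was -0.69 ± 0.137 (edgeR adjusted p = 0.00179), which took the IL-4 effect from 26.8-fold without ONX-0914 to 16.6-fold with it. Mrc1, the mannose receptor CD206, read 121 and 119.6 CPM in M0 and fell from 517 ± 29.5 to 349.9 ± 18.2 CPM in M2 (-0.55, edgeR adjusted p = 0.00096). Myc, a growth regulator that IL-4 raises, read 15.5 and 15.996 CPM in M0 and fell from 32.4 to 20.8 CPM in M2 (-0.69, edgeR adjusted p = 0.00366). Clec10a, the lectin MGL1, was called at -1.25 (edgeR adjusted p = 0.0165), and without replicate 2 of M0 with ONX-0914 the call was lost (-1.08, edgeR adjusted p = 0.0581).

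Other defining IL-4 genes did not pass the test of the difference. Chil3, the secreted lectin Ym1, fell in M2 from 1562 ± 51.2 to 1316 ± 99.0 CPM and read 6.05 and 6.38 CPM in M0 (-0.32, 95% interval -0.59 to -0.05; edgeR adjusted p = 0.202). Retnla, the secreted FIZZ1, fell in M2 from 5.32 to 2.13 CPM and read 0.598 and 0.512 CPM in M0 (-1.09, 95% interval -2.02 to -0.16; edgeR adjusted p = 0.209). The receptor and factor of the pathway differed little: Il4ra by 0.03 (95% interval -0.18 to 0.25) and Stat6 by -0.05 (95% interval -0.18 to 0.08). Of 21 genes of IL-4 receptor and JAK-STAT signalling, 0 were called in the difference by edgeR, 0 had an unadjusted p under 0.05, and at most 1 was called under any alternative.

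Of 18 lipid handling genes of the LXR and PPAR-gamma list, Lpl and Nr1h3 were lower in the difference and Acadl was higher. Over all genes 2.74% were lower and 3.44% higher. In this list 4 were lower without replicate 2 of M1 and 7 with the 16 libraries alone. The Acadl call (0.23, edgeR adjusted p = 0.0279) ended without any 1 of 6 libraries. It also ended with DESeq2 size factors (edgeR adjusted p = 0.0526) and with no count filter (0.185). Without replicate 2 of M1 it stayed (edgeR adjusted p = 0.00522). Lpl, lipoprotein lipase (chr8:68880491-68907448, plus strand), read 1409, 1578, 1615 and 1406 CPM in M0, 1555, 1705, 1628 and 1389 CPM in M0 with ONX-0914, 1686, 1756, 1749 and 1581 CPM in M2, and 822, 884, 917 and 872 CPM in M2 with ONX-0914. The last group lay below the 12 other libraries, which overlapped, and the difference was -1.02 ± 0.13 (edgeR adjusted p = 1.14e-05). Lipn, a lipase of the acid lipase family, read 7.36 and 7.07 CPM in M0 and fell from 33.8 to 14.1 CPM in M2 (-1.19, edgeR adjusted p = 7.34e-05). Nr1h3, the oxysterol receptor LXRα, fell from 44.2 to 37.8 CPM in M0 and from 55.4 to 35.5 CPM in M2 (-0.42, edgeR adjusted p = 0.00713). In the cholesterol list, 21 of 24 genes fell in M0 and 22 in M2, where 11.4% and 18.8% of all genes fell. In the difference 1, Hmgcs1, was called, 2 without replicate 2 of M1. The Hmgcs1 call (-0.46, edgeR adjusted p = 0.0295) ended without any 1 of 10 libraries, at -0.47 to -0.41. It stayed without replicate 2 of M1 (edgeR adjusted p = 0.000116).

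Kcnn4, the calcium-activated potassium channel KCa3.1 (chr7:24370263-24386690, plus strand), fell in both states. It read 46.4, 50.5, 53.8 and 46.0 CPM in M0, 27.4, 31.2, 26.8 and 23.8 CPM in M0 with ONX-0914, 76.4, 91.8, 82.2 and 78.2 CPM in M2, and 15.8, 18.2, 18.2 and 17.8 CPM in M2 with ONX-0914. M2 held the highest of the untreated levels and the lowest of the treated ones, with no overlap among the 4 groups (difference -1.38 ± 0.158, edgeR adjusted p = 2.4e-06). Sla, an adaptor that dampens receptor signalling, fell from 27.6 to 15.5 CPM and from 33.8 to 8.29 CPM (-1.20, edgeR adjusted p = 5.9e-06). Fcgr1, the high-affinity IgG receptor CD64, fell from 11.5 to 6.27 CPM and from 8.15 to 2.12 CPM (-1.08, edgeR adjusted p = 0.0173). The Fcgr1 call was lost without replicate 2 of M0 with ONX-0914 (-0.97, edgeR adjusted p = 0.0501) or replicate 1 of M2 with ONX-0914 (-0.92, edgeR adjusted p = 0.0599).

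Adgre1, the macrophage marker F4/80, read 186 and 188 CPM in M0 and fell from 241 ± 12.5 to 179 ± 13.3 CPM in M2 (-0.45, edgeR adjusted p = 0.000917). Of the 8 macrophage markers, 3 were lower and 1 was higher in the difference, against 2.74% and 3.44% of all genes. The urokinase receptor Plaur read 179 and 164 CPM in M0 and fell from 175 to 97.0 CPM in M2 (-0.73, edgeR adjusted p = 1.73e-06), and its ligand Plau fell in M2 from 85.03 to 57.5 CPM (-0.78, edgeR adjusted p = 7.39e-05). The chemokine Ccl6 fell in M2 from 696 to 407 CPM and read 368 and 354 CPM in M0 (-0.72, edgeR adjusted p = 0.000103). Mmp12, the macrophage elastase, rose in both states, from 4722 to 7297 CPM in M0 and from 7323 to 12682 CPM in M2, with a difference of 0.16 (95% interval -0.04 to 0.37; edgeR adjusted p = 0.446).

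Regulators of cell death went both ways. Bcl2, an anti-apoptotic gene, read 11.4 and 10.3 CPM in M0 and fell from 18.3 to 8.96 CPM in M2 (-0.87, edgeR adjusted p = 0.00141), and Bcl2l1, which encodes BCL-XL, fell from 95.5 to 82.6 CPM in M0 and from 81.1 to 46.1 CPM in M2 (-0.61, edgeR adjusted p = 0.000103). Nol3, the caspase inhibitor ARC, rose from 0.480 ± 0.15 to 5.92 ± 0.823 CPM in M0 and from 0.251 ± 0.198 to 10.4 ± 0.509 CPM in M2 (1.75, edgeR adjusted p = 0.00846). Nol3 overlaps a gene on the other strand. Its levels without ONX-0914 were low. With each library left out in turn the Nol3 difference ran from 1.48 to 2.40 and stayed called. Mdm2, the ubiquitin ligase of p53, read 144 and 150.2 CPM in M0 and rose from 123 to 169 CPM in M2 (0.40, edgeR adjusted p = 0.00853). They are the 4 of 20 listed genes called (6.17% of all genes were). Of 30 cell cycle genes, ONX-0914 lowered 17 in M2 and 2 in M0, where it lowered 18.8% and 11.4% of all genes. In the difference 2 were called lower (2.74% of all genes were), 5 without replicate 2 of M1. Mcm5 of the DNA helicase differed by -0.74 (edgeR adjusted p = 0.00524). Rrm2 of ribonucleotide reductase differed by -0.56 (edgeR adjusted p = 0.0456), and leaving out any 1 of 14 of the 16 libraries ended its call (-0.60 to -0.49, edgeR adjusted p 0.0527 to 0.112).

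Among the other large positive differences, Tuba4a, an alpha-tubulin, went from 79.3 to 112 CPM in M0 and from 44.8 to 156 CPM in M2 (1.30, edgeR adjusted p = 4.15e-09). Map1a, a microtubule-associated protein, went from 5.42 to 8.55 CPM and from 4.66 to 20.8 CPM (1.50, edgeR adjusted p = 1.14e-05). Trim6, a ubiquitin ligase, went from 1.99 to 6.72 CPM and from 1.47 to 12.0 CPM (1.25, edgeR adjusted p = 0.00184). Tuba4a, Map1a and Trim6 rose in both states. Tuba4a and Map1a also overlap genes on the other strand. So do other genes named here, among them Slc6a9, Gclm, Sqstm1, Keap1, Ufd1, Psph, Sla, Ccl6 and H2-DMa.

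**Figure D4:**
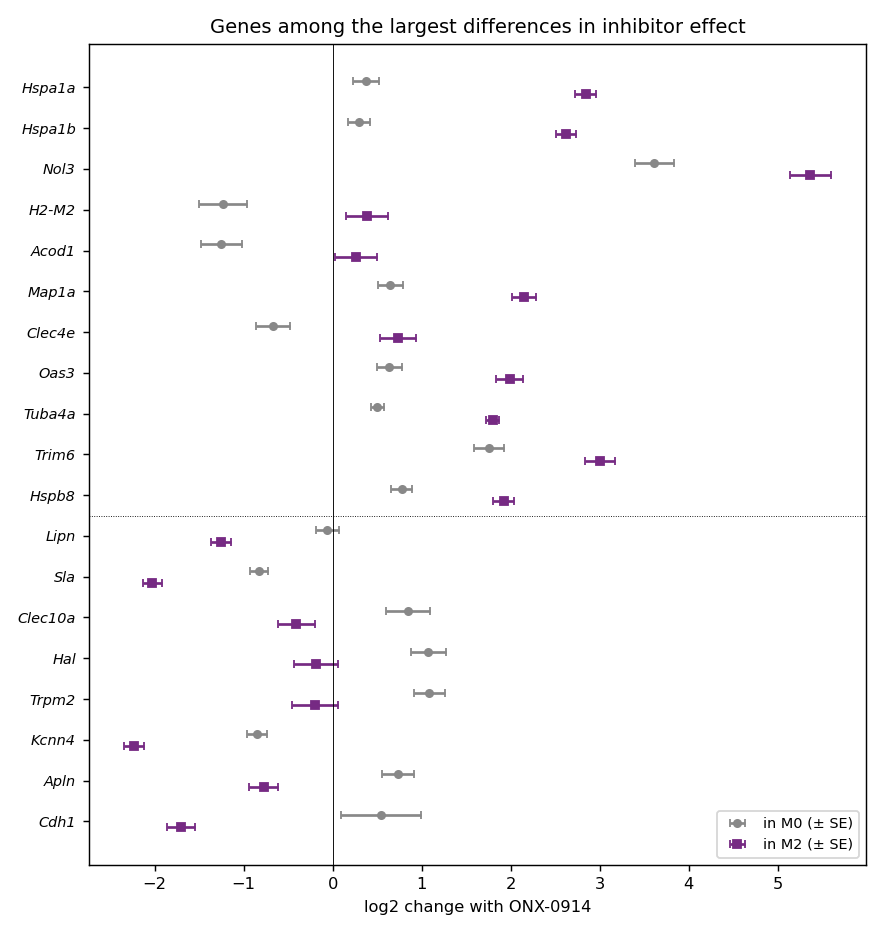
Fitted log2 change with ONX-0914 in M0 (grey circles) and M2 (purple squares), each with its SE, for genes described in the text from among the largest differences, 11 positive (above the dotted line) and 8 negative. Hspa1a and Hspa1b change by 0.37 and 0.30 in M0 and by 2.84 and 2.62 in M2, and Apln changes in opposite directions; the M2 change of Clec4e rests in part on 1 library.

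At 28 genes ONX-0914 gave a called change in both states in opposite directions, 15 upward in M0 and downward in M2 and 13 the reverse. Without replicate 4 of M2 with ONX-0914 there were 22, of which 21 were among the 28. Apln, the peptide hormone apelin, read 2.17, 2.70, 2.51 and 2.07 CPM in M0 and 3.44, 4.15, 4.61 and 3.51 CPM in M0 with ONX-0914, and 5.96, 7.55, 7.37 and 6.46 CPM in M2 and 4.58, 4.27, 3.63 and 3.47 CPM in M2 with ONX-0914. The inhibitor groups met at the same level from opposite sides (difference -1.51 ± 0.241, edgeR adjusted p = 0.000176). Slc6a9, a glycine transporter, fell in M0 from 2.37 to 1.57 CPM and rose in M2 from 3.004 to 4.20 CPM (1.08, edgeR adjusted p = 0.00401). Trpm2, a calcium channel opened by oxidative stress, and Hal, histidine ammonia-lyase, were not among the 28 genes. They rose in M0 from 3.43 to 7.31 and from 3.15 to 6.62 CPM. In M2 they read 1.13 and 0.986 CPM, and 1.70 and 1.49 CPM (differences -1.28 and -1.26, edgeR adjusted p = 0.0109 and 0.0119).

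Several positive differences rested in part on replicate 4 of M2 with ONX-0914, the library with more M1-type transcripts. Clec4e, the C-type lectin Mincle, read 135, 116, 113 and 121 CPM in M0, 82.9, 68.4, 67.9 and 85.8 CPM in M0 with ONX-0914, 31.7, 37.9, 27.4 and 33.2 CPM in M2, and 39.3, 43.9, 39.3 and 93.7 CPM in M2 with ONX-0914. The difference of 1.40 (edgeR adjusted p = 0.00184) became 1.00 without that library (edgeR adjusted p = 0.00154), and the M2 change of 0.73 became 0.33 and no longer passed (edgeR adjusted p = 0.0805). Acod1, which makes itaconate, went from 1.51 to 1.00, and H2-M2, a non-classical class I gene, from 1.62 to 1.08. Oas3, an antiviral oligoadenylate synthetase, went from 1.35 to 1.10. All 4 were called with and without the library. Isg15, a ubiquitin-like modifier induced by interferon, had a difference of 0.96 (edgeR adjusted p = 0.041) that did not pass without it (0.69, edgeR adjusted p = 0.115), and leaving out other single libraries ended this call too, 11 in all. Of 29 interferon-stimulated genes, 4 were higher and none lower, 2 higher and 1 lower without that library and 8 higher without replicate 2 of M1. Of 14 class I presentation genes, 3 were higher, 0 without it or with DESeq2 size factors, and 6 without replicate 2 of M1. For both lists the shares over all genes were 3.44% higher and 2.74% lower. The part of M1-type RNA in these results was not tested beyond leaving the library out.

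MHC class II genes and B cell markers changed with ONX-0914 in each state, with few or no called differences. Of 11 MHC class II genes, 10 fell in M0 and 10 in M2 (medians -1.44 and -1.90), where 11.4% and 18.8% of all genes fell. In the difference 2, H2-DMa and H2-DMb1, were called lower. The H2-DMa call (-0.55, edgeR adjusted p = 0.0204) ended without replicate 4 of M2 with ONX-0914 (-0.47, edgeR adjusted p = 0.0566) or replicate 1 of M0 (-0.48, edgeR adjusted p = 0.0533), and the H2-DMb1 call (-0.37, edgeR adjusted p = 0.0153) ended with no count filter (-0.36, edgeR adjusted p = 0.0549). All 10 tested B cell markers fell in each state (medians -1.87 and -1.95) with 0 called in the difference by edgeR and 0 at an unadjusted p under 0.05. The summed B cell markers were 114 and 64.2 CPM in M0 and 120.3 and 65.0 CPM in M2, mostly Cd22, so that class II and B cell transcripts moved together; the part of B cells in the class II change was not tested. Among 19 inflammatory cytokine genes and 30 respiratory chain genes, 0 were called in the difference by edgeR, 5 and 1 had an unadjusted p under 0.05, and at most 2 of either list were called under any alternative. The fitted differences of the cytokine genes ran from -4.07 to 4.32, against -0.15 to 0.33 for the respiratory chain. The lack of calls among the cytokine genes thus does not show that their differences were small. Of 31 lysosomal genes, 1 was higher. Of 21 chemokines 1 was higher and 1 lower, and of 24 glycolysis and HIF-1 genes 1 was higher and 2 were lower. Over all genes 3.44% were higher and 2.74% lower. Without replicate 2 of M1 the counts higher and lower were 3 and 1 for the lysosomal genes, 3 and 2 for the chemokines, and 2 and 6 for the glycolysis and HIF-1 genes.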

How the data were processed

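The authors deposited 1 table of raw counts per Ensembl gene for all 24 libraries, with no normalization and whole numbers throughout. Per the submitters' processing notes, FastQC 0.11.9, cutadapt 2.8, Bowtie2 2.2.5, Picard and the mm10 build were used; the counting tool, strand setting and annotation used were not given in the sources used here. Symbols and positions came from GENCODE M21 (GRCm38), which matched 54495 of 54532 features; the 37 others held 0.00253% of the counts. filterByExpr with the 6 groups as design left 14692 genes with 99.9% of the counts. In R 4.3.3, edgeR 4.0.16 (TMM, quasi-likelihood, 1 mean per group, 24 libraries, 18 residual degrees of freedom, no replicate block) tested the difference and the inhibitor effect in M0 and in M2. Standard errors are the log2 value divided by the square root of F, and 95% intervals add and subtract 1.96 of them. CPM are given as mean ± SD or per library.

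Replicate numbers showed no pairing over all genes. Deviations from the group means correlated with a mean r of 0.0094 between libraries of the same number (24 pairs) and -0.0031 between others (72 pairs). A small mean r over all genes cannot exclude pairing, because it can miss pairing at some genes. Arg1 and Lpl were higher in replicates 2 and 3 than in replicates 1 and 4 in all 4 groups. The labels call the replicates independent pools of mice. Named genes are the 14 largest positive and 14 largest negative differences among called genes with at least 5 CPM in their highest group, up to 4 called members of each list, and 20 fixed genes; others are marked. Results for some genes are not reported here. The members, gene lists and rules were chosen with earlier results of these data known. Lists are described by counts and medians with no test. The test was tried on simulated data with no outlying library (2 of 151 calls were false). Alternatives were DESeq2 1.42.0, DESeq2 size factors, limma 3.58.1 voom with quality weights, other count filters, the 16 libraries alone, a replicate block and each library left out in turn. Promoter windows came from RefSeq for 10482 of the tested genes.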

Additional observations from a re-analysis of the deposited data

Results flagged for a closer look

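The inhibitor effect differed between the states at 907 genes by the test of the difference itself. Of the named genes, 4 had called changes in opposite directions in M0 and M2: Apln (difference -1.51 on the log2 scale), Hspa5 (0.39), Slc6a9 (1.08) and Clec4e (1.40). Without replicate 4 of M2 with ONX-0914 the Clec4e difference was 1.00 and its M2 change of 0.33 did not pass the test (edgeR adjusted p = 0.0805); the other 3 kept opposite called changes.

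In 24 of 536 groups of 4 libraries, over the 134 named genes, 1 library lay far from the other 3 by Dixon's criterion. That is 4.48%, close to the 1 in 20 that chance gives. Replicate 4 of M2 with ONX-0914 accounts for 5 of them: it was highest for H2-M2 (21.6 CPM against at most 9.04 in the others), Clec4e (93.7 against 43.9) and Hmgcs1 (45.3 against 42.9), and lowest for Aars (324 against at least 333) and Bcl2l1 (42.7 against 46.9). Replicate 4 of M0 with ONX-0914 accounts for 4, being high for H2-M2 (5.03 CPM) and Sec24d (66.5 CPM) and low for Asns (19.8 CPM) and Plau (80.0 CPM).

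The others were spread over 11 libraries. In M0, replicate 4 was low for Psmb2 (42.8 CPM) and Psmb9 (14.5 CPM), and replicate 1 was low for Stat6 (212 CPM) and Abcg3 (6.03 CPM). In M0 with ONX-0914, Nploc4 was low in replicate 1 (171 CPM), Sla was high in replicate 2 (17.98 CPM) and Egr1 was high in replicate 3 (19.5 CPM). In M2, Psph (17.0 CPM) and Lipn (36.6 CPM) were high in replicate 2, Atf4 (405 CPM) and Psmb8 (46.0 CPM) were low in replicate 3, and Psmb7 was low in replicate 4 (58.5 CPM). In M2 with ONX-0914, Fcgr1 was low in replicate 1 (1.38 CPM), Rrm2 was low in replicate 2 (7.69 CPM) and Gaa was high in replicate 3 (508 CPM).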

How the results depend on the processing

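The count of genes called in the difference (907; 505 higher, 402 lower) was 1847 (1041 higher, 806 lower) with limma voom, 1672 (949, 723) without replicate 2 of M1, 1590 (721, 869) with the 16 libraries alone, 1167 (553, 614) with DESeq2's Wald test, 965 with at least 1 CPM in 4 libraries, 890 (422, 468) with DESeq2 size factors and 868 with no count filter. Of the 907 genes, 902, 907, 900 and 897 were also called in the first 4 of these settings, in the same direction. Leaving out each of the 16 libraries gave 660 to 860 genes, 383 to 469 higher and 277 to 391 lower. The fits with a library left out gave 2463 to 3096 calls for the inhibitor in M0 (1109 to 1403 higher, 1334 to 1703 lower) and 4654 to 5359 in M2 (2264 to 2594, 2390 to 2765). With voom the M0 count was 4622, with 2118 higher, against 3079 and 1401; the cause was not tested. The replicate block gave 979 genes in the difference (546 higher, 433 lower), 876 of them shared with the 907. It ended 1 call among the named genes, Rrm2 (-0.57, edgeR adjusted p = 0.0525). The check of deviations showed no pairing by number over all genes, which does not exclude it. Of 121 named genes that were called, 95 kept their call in all 24 alternatives and 26 lost it in at least 1; 2 uncalled genes, Fth1 and Psmb6, gained one, and 0 changed direction. Several list counts moved by over 1.5 times in an alternative: the IL-4-induced genes from 8 lower to 13 with the 16 libraries alone, the ATF4 response from 7 higher to 12 with voom, the tRNA synthetases from 4 to 8 with voom, the lipid handling genes from 2 lower to 7 with the 16 libraries alone, and the interferon-stimulated genes from 4 higher to 14 with no count filter. At 18480233 to 21821483 counts a library, differences near 1.25-fold were mostly not detectable in the simulation (9 of 50 called).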
